A study of Mus musculus with 12 samples.

Results

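The sterol regulatory element-binding protein (SREBP) genes, their regulators and a set of their targets outside the cholesterol enzymes were followed in mouse embryonic stem cells (mESC) with and without Rif1, whose protein acts in replication timing and DNA repair. The 9 genes were taken from the count table by symbol: Srebf1, Srebf2, Scap, Insig1, Insig2, Stard4, Fasn, Scd1 and Scd2. They are 9 of 24391 symbols in the table, and all 9 passed the filter on low counts that left 17115 genes for testing. None of the 9 takes up lipid at the cell surface, so sterol uptake was counted on a separate list.

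RNA was sequenced from 4 female hybrid mESC lines (C57BL/6J-129/SvJ crossed to Mus musculus castaneus), each giving 1 library in each of 3 conditions. All 4 lines carry Rs26+/CreERT, a tamoxifen-inducible Cre at Rosa26. Lines 15.10 (replicate 3) and 16.9 (replicate 4) have both Rif1 alleles floxed (Rif1F/F), and lines 5.3 (replicate 1) and 5.16 (replicate 2) are Rif1+/+ and are called WT. The conditions were mESC before deletion without 4-hydroxytamoxifen (OHT), mESC after 2 days of OHT, and embryoid bodies (EB, cell aggregates in which mESC leave the pluripotent state) of 2 days made after OHT. Floxed lines are called F/F before OHT, although their titles carry both genotype names, and knockout (KO) after it. WT lines received the same OHT and carry the same Cre allele. Per the labels, the mESC medium held serum, LIF and small-molecule inhibitors of the kinases MEK and GSK3. The 6 groups therefore hold 2 libraries each, 1 per line. The p-values rest on the spread between libraries of different lines within a group, pooled over groups and moderated by other genes. Genotype cannot be told apart from anything else that differs between the floxed and the WT pair of lines. The first part of the description label, which has the form of a flow cell name, is shared within a condition and differs between conditions, so it cannot be told apart from condition.

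SREBPs are made as precursors in the membrane of the endoplasmic reticulum, where SCAP binds them. When sterols are scarce, SCAP carries the precursor to the Golgi, proteases release the transcription factor domain, and it enters the nucleus to activate genes of sterol and fatty acid synthesis. When sterols are plentiful, INSIG1 and INSIG2 hold SCAP in the endoplasmic reticulum. Insig1 is itself an SREBP target, and SREBP2 favours sterol genes while SREBP1 favours fatty acid genes. RNA counts do not measure protein processing, and counts per gene do not separate the SREBP1a and SREBP1c transcripts of Srebf1.

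SREBPs bind sterol regulatory elements and E-boxes, often near a CCAAT box bound by NF-Y, so the promoters of 3 genes whose levels differed between genotypes are shown. RefSeq windows were found for 6 of the 9 genes, and the 250 bases before the annotated start are given from GRCm38.p6, a newer build than the mm9 named by the submitters. Capitals mark ATCACCC (the core of a sterol regulatory element), CACGTG (an E-box) and ATTGG (an inverted CCAAT box), searched on both strands, so a match on the other strand reads GGGTGAT or CCAAT. Insig1 lies at chr5:28071162-28071411 on the plus strand, Srebf2 at chr15:82147019-82147268 on the plus strand, and Fasn at chr11:120824548-120824797 on the minus strand.
Insig1: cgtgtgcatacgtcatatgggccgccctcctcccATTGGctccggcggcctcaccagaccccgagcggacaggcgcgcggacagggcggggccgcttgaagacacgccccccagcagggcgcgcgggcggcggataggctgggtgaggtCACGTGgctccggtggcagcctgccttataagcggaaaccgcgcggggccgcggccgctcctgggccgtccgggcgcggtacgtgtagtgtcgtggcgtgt
Srebf2: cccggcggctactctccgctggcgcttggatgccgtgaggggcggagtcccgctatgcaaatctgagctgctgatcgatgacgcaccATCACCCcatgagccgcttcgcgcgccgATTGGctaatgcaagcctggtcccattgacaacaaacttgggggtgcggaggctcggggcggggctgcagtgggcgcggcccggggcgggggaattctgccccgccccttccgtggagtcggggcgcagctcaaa
Fasn: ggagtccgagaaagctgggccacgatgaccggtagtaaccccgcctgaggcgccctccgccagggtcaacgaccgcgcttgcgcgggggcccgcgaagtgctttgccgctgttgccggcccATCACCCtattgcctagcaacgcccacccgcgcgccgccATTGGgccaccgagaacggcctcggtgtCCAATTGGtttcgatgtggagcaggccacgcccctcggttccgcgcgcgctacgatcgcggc

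The Insig1 window held an inverted CCAAT box starting 216 bases before the start and an E-box 101 bases before it. In the Srebf2 window the ATCACCC core lay 163 bases and the inverted CCAAT box 135 bases before the start. The Fasn window held the core at 129 bases before the start and CCAAT boxes at 90, 62 and 59 bases, of which the last 2 overlap in the letters CCAATTGG. Over all 32851 RefSeq windows of 300 bases, ATCACCC occurred in 2.69%, CACGTG in 7.15% and ATTGG in 37.4%. The ATCACCC core was chosen after the windows were read. The Insig1 window had no ATCACCC, and Insig1 passed in every genotype comparison. Insig2, Srebf1 and Scap also had windows, none with ATCACCC, and passed in no genotype comparison with the settings of the report. Whether matches go with the genotype differences was not tested. ATTGG occurred in windows of Insig2 and Srebf1, and CACGTG in windows of Scap. A longer element, TCACNCCAC, matched none of the members' windows and 1.24% of all windows. A match describes the letters and does not show binding.

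Library totals ranged from 28600870 to 64808897 counts, and the 9 genes had between 645 and 75688 counts in a library. Levels below are CPM, counts scaled to the TMM-normalized library size. Rif1 was at 1172 and 1172 CPM in F/F mESC and 1537 and 1752 CPM in WT mESC before OHT, and was lower in the floxed lines (log2 fold change −0.49 ± 0.08 SE, edgeR adjusted p = 7.4e-05). Following OHT it was at 702 and 662 CPM in KO mESC and 1605 and 1455 CPM in WT mESC, and at 789 and 845 CPM in KO EB and 1382 and 1342 CPM in WT EB. The counts cover all exons, including any that remain after deletion. Summed CPM of 8 pluripotency markers was 4199 to 5915 in mESC libraries and 1342 to 1576 in EB libraries, with no marker at 0. Before OHT it was 5406 to 5881 in F/F mESC and 4199 to 4432 in WT mESC. After OHT it was 5545 to 5915 in KO mESC and 5183 to 5276 in WT mESC. In EB it was 1483 to 1576 in KO and 1342 to 1379 in WT. The part of this marker sum in the differences below was not tested. Of 8 feeder fibroblast markers, 2 to 4 were at 0 in each mESC library and 0 to 1 in each EB library, and they summed to 17.3 to 20.8 CPM in EB and 7.85 to 10.8 CPM in mESC. The part of the feeder markers in the differences between EB and mESC was not tested. WT mESC replicate 1 was unlike the rest in Lars2, which took 0.869% of its counts and at most 0.140% elsewhere. In bulk samples, fewer cells of a type and less RNA per cell cannot be told apart.

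Insig1, Scd1 and Scd2 were lower in the floxed lines than in WT lines in all 3 conditions, also before OHT. Stard4 changed the sign of its genotype difference: it was lower in F/F mESC before OHT and higher in KO EB, each against WT. Srebf2 and Fasn were lower in KO EB than in WT EB, and Srebf1, Scap and Insig2 passed in no genotype comparison with these settings, although Srebf1 before OHT and Insig2 in EB passed under some of the alternatives. Before OHT 5 of the 9 genes passed in F/F against WT mESC, all lower, where 37.4% of all tested genes passed (19.9% higher, 17.5% lower). After OHT 4 of 9 passed in KO against WT mESC (1 higher, 3 lower), where 38.4% of all genes passed (19.8% higher, 18.6% lower). In EB 6 of 9 passed in KO against WT (1 higher, 5 lower), where 40.4% of all genes passed (20.7% higher, 19.7% lower). Genes lower in all 3 genotype comparisons made up 3 of the 9 members and 4.52% of all tested genes. The median log2 fold change of the 9 genes was −0.34 before OHT, −0.14 in mESC after OHT and −0.40 in EB, against −0.002, −0.003 and −0.02 over all genes tested.

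**Figure D1:**
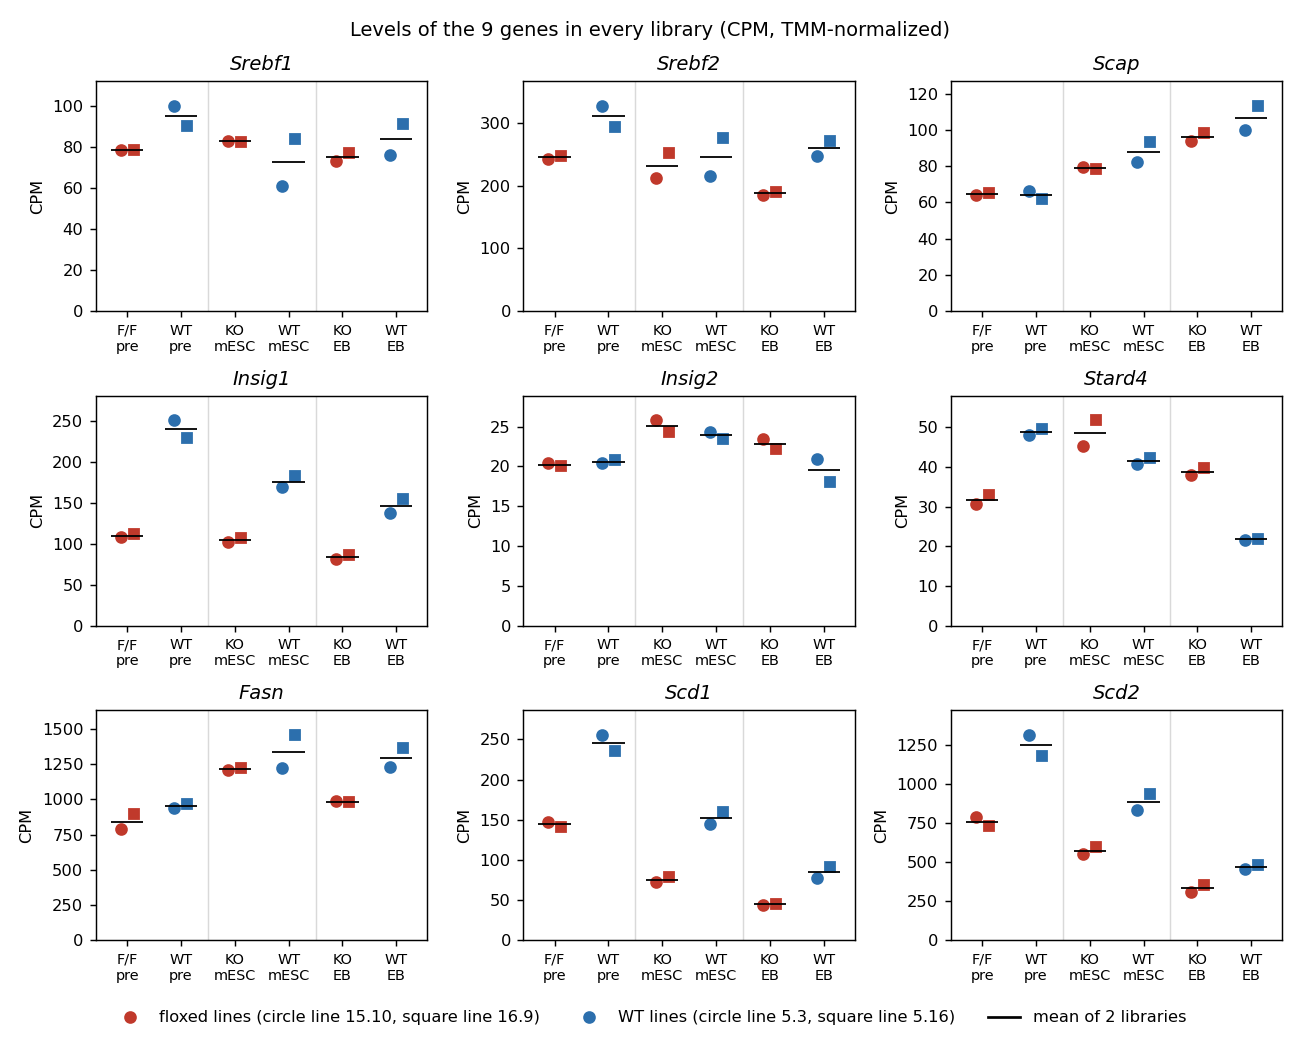
Each panel plots 1 gene's level (TMM-normalized CPM, linear axis from 0) in the 12 libraries, with F/F or KO left of WT within each condition. Red marks are lines 15.10 (circle) and 16.9 (square), blue marks are lines 5.3 (circle) and 5.16 (square), and bars are means of 2 libraries. Insig1, Scd1 and Scd2 sit lower in the floxed lines in every condition, and Stard4 sits lower before OHT but higher in KO EB.

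Among the transcription factors, Srebf1 encodes SREBP1. It was at 78.5 and 78.6 CPM in F/F mESC before OHT, and at 100.3 and 90.5 CPM in WT mESC before OHT. In KO mESC it was at 83.2 and 82.4 CPM, within the span of 61.0 and 84.2 CPM in WT mESC after OHT. In KO EB it was at 73.5 and 77.2 CPM, against 76.3 and 91.5 CPM in WT EB, so that libraries of both genotypes overlapped in both OHT-treated conditions. With all libraries no genotype comparison passed, with log2 fold changes of −0.28 ± 0.11 before OHT (adjusted p = 0.061), 0.19 ± 0.11 in mESC (adjusted p = 0.20) and −0.16 ± 0.11 in EB (adjusted p = 0.29) by edgeR's quasi-likelihood test. Before OHT it did pass with DESeq2 (−0.28, adjusted p = 0.049), with no filter (−0.27, edgeR adjusted p = 0.0047) and in a fit of those groups alone (−0.28, edgeR adjusted p = 0.0093). In mESC after OHT it passed without WT mESC replicate 2 (0.44, edgeR adjusted p = 0.0013). The 2 WT mESC libraries after OHT were the most spread of any group for this gene, at 72.6 ± 16.4 CPM (SD, n = 2). Srebf1 fell by 0.40 ± 0.11 in WT mESC after OHT against WT mESC before it (edgeR adjusted p = 0.0079). That call rested on single libraries, with −0.16 and adjusted p = 0.19 without WT mESC replicate 1, −0.32 and 0.080 without WT replicate 1 before OHT, and −0.64 without WT mESC replicate 2.

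Srebf2 encodes SREBP2, the factor that favours sterol genes. The ratio of its CPM to that of Srebf1, not corrected for length, was 2.53 and 2.47 in KO EB and 3.24 and 2.97 in WT EB. Before OHT this ratio was 3.10 and 3.15 in F/F mESC and 3.27 and 3.24 in WT mESC. After OHT it was 2.55 and 3.07 in KO mESC and 3.53 and 3.28 in WT mESC. Srebf2 was at 243 and 248 CPM in F/F mESC before OHT, against 328 and 294 CPM in WT mESC before OHT. KO mESC had 212 and 253 CPM and WT mESC after OHT had 216 and 276 CPM, and these groups overlapped. KO EB had 186 and 191 CPM, the lowest levels of Srebf2 in the 12 libraries, against 248 and 272 CPM in WT EB. In EB the log2 fold change of KO against WT was −0.46 ± 0.10 (edgeR adjusted p = 0.0014), or 0.725-fold. That EB effect minus the effect in mESC after OHT was −0.38 ± 0.14 (edgeR adjusted p = 0.052). Minus the effect before OHT it was −0.12 ± 0.14 (edgeR adjusted p = 0.55). Neither difference passed with these settings. In mESC after OHT the log2 fold change of Srebf2 was −0.08 ± 0.10 (edgeR adjusted p = 0.57). Before OHT it was −0.34 ± 0.10 with edgeR adjusted p = 0.013, a call lost without F/F replicate 3 (−0.32, adjusted p = 0.061), F/F replicate 4 (−0.35, adjusted p = 0.053) or WT replicate 1 (−0.26, adjusted p = 0.13).

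Scap, the escort of the precursors, ranged from 62.0 to 113 CPM. It was at 64.1 and 64.9 CPM in F/F mESC and at 66.5 and 62.0 CPM in WT mESC before OHT, which overlapped. After 2 days of OHT it was at 79.6 and 78.3 CPM in KO mESC and at 82.5 and 93.5 CPM in WT mESC, and in EB at 93.9 and 98.4 CPM in KO and at 100.02 and 113 CPM in WT. The KO libraries lay below the WT libraries in both OHT-treated conditions, but the differences of −0.16 ± 0.08 in mESC (adjusted p = 0.12) and −0.15 ± 0.08 in EB (adjusted p = 0.13) did not pass edgeR's test. Libraries of the genotypes did not overlap, in either direction, for 69% of all tested genes in mESC after OHT and 73.7% in EB. Scap rose with both steps in both genotypes. It was higher in mESC after OHT than before by 0.29 ± 0.08 in floxed lines (edgeR adjusted p = 0.0063) and by 0.45 ± 0.08 in WT lines (edgeR adjusted p = 1.6e-04). It was higher again in EB than in mESC after OHT by 0.28 ± 0.08 in KO (edgeR adjusted p = 0.0046) and by 0.28 ± 0.08 in WT (edgeR adjusted p = 0.0042). The last of these was lost without WT mESC replicate 1 (0.15, adjusted p = 0.14) or WT EB replicate 2 (0.15, adjusted p = 0.17). In the GENCODE annotation 985 of the 7443 exon bases of Scap overlap 5830462I19Rik on the other strand. Whether the counting used strand is not known here, so part of these counts may belong to that gene. Srebf1 has 109 exon bases that overlap Rai1 on the other strand and 66 that overlap Mir6922 on its own strand.

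Insig1, which retains SCAP and is induced by SREBPs, differed most among the regulators. Before OHT it was at 108 and 112 CPM in F/F mESC, against 251 and 229.7 CPM in WT mESC. With OHT it was at 102 and 106 CPM in KO mESC, against 169 and 183 CPM in WT mESC. In EB it was at 80.8 and 85.9 CPM in KO, against 138 and 155 CPM in WT. The groups did not overlap in any condition. The highest floxed library, at 112 CPM, lay below the lowest WT library, at 138 CPM. Of all tested genes, 67.2% did not overlap before OHT, 69% in mESC after OHT and 73.7% in EB. The share without overlap in every condition was not counted. The log2 fold change was −1.13 ± 0.07 before OHT (edgeR adjusted p = 3.3e-09), −0.76 ± 0.07 in mESC after OHT (edgeR adjusted p = 5.1e-07) and −0.81 ± 0.07 in EB (edgeR adjusted p = 1.6e-07). In WT lines Insig1 fell by 0.45 ± 0.07 in mESC after OHT against mESC before it (edgeR adjusted p = 8.8e-05), while the same step in the floxed lines gave −0.08 ± 0.07 (edgeR adjusted p = 0.40). The difference between genotype effects, mESC after OHT minus before, was 0.37 ± 0.10 (edgeR adjusted p = 0.036). That call was lost when any of 6 of the 8 libraries involved was left out: F/F replicate 3 (adjusted p = 0.072), F/F replicate 4 (0.070), WT replicate 1 before OHT (0.17), KO mESC replicate 3 (0.078), KO mESC replicate 4 (0.15) or WT mESC replicate 1 (0.10).

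Insig2, the second retention protein, ranged from 18.0 to 25.8 CPM. In F/F mESC it was at 20.4 and 20.0 CPM, against 20.4 and 20.8 CPM in WT mESC before OHT. OHT-treated KO mESC had 25.8 and 24.3 CPM, against 24.3 and 23.4 CPM in WT mESC. KO EB had 23.4 and 22.1 CPM, against 21.0 and 18.0 CPM in WT EB. No genotype comparison passed, the nearest being EB at 0.23 ± 0.09 (edgeR adjusted p = 0.061). The call in EB was gained with relative log expression scaling (0.24, adjusted p = 0.049), in a fit of the EB groups alone (0.24, adjusted p = 0.044), and without WT EB replicate 1 (0.35, adjusted p = 0.021). The ratio of Insig1 to Insig2 CPM was 5.29 and 5.60 in F/F mESC, against 12.3 and 11.04 in WT mESC before OHT. In OHT-treated cells it was 3.94 and 4.37 in KO mESC, against 6.94 and 7.79 in WT mESC. In EB it was 3.45 and 3.88 in KO and 6.57 and 8.57 in WT.

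**Figure D2:**
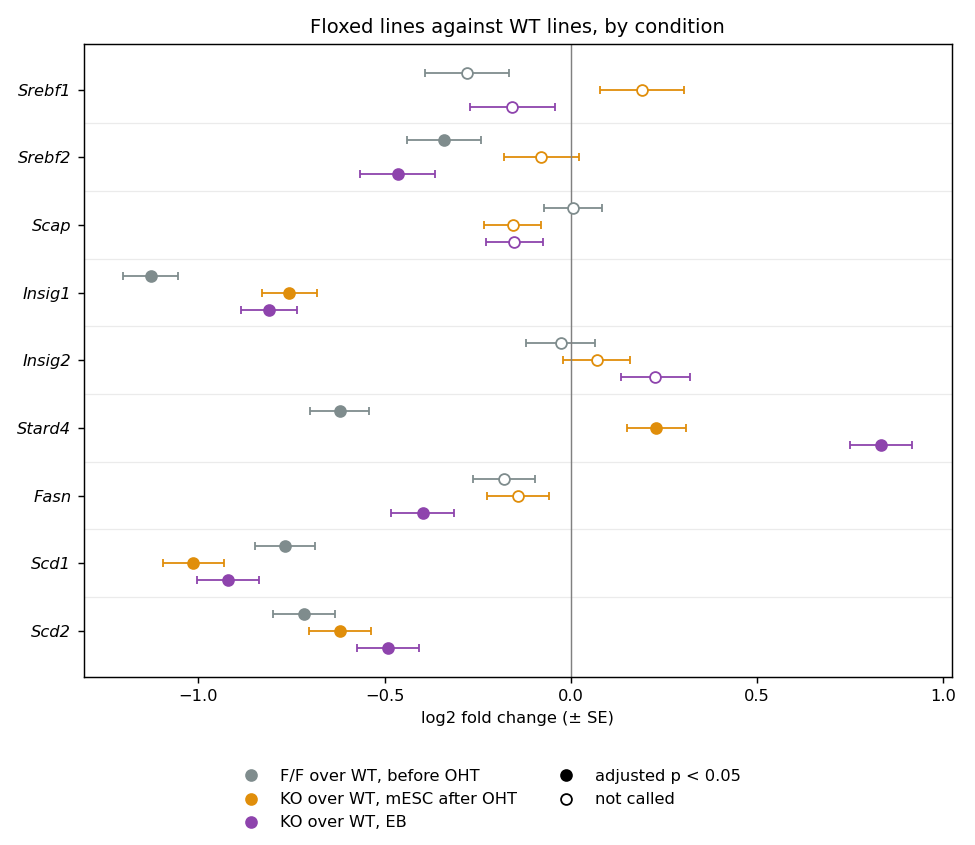
Points are log2 fold changes of F/F against WT mESC before OHT, KO against WT mESC after OHT and KO against WT EB for the 9 genes, with bars of 1 SE. Filled points passed an adjusted p of 0.05. Insig1, Scd1 and Scd2 lie left of 0 in all 3 comparisons, and Stard4 runs from −0.62 before OHT to 0.83 in EB.

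Among the targets, Stard4 encodes a soluble carrier that moves cholesterol between membranes. Before OHT it was at 30.7 and 32.8 CPM in F/F mESC, against 48.0 and 49.6 CPM in WT mESC. After OHT it was at 45.3 and 51.7 CPM in KO mESC, against 40.6 and 42.2 CPM in WT mESC. In EB it was at 37.9 and 39.6 CPM in KO, against 21.6 and 21.9 CPM in WT. The groups did not overlap in any condition, with the floxed lines below WT before OHT and above WT in both conditions after it. Non-overlap alone was common, since 67.2% of all tested genes did not overlap before OHT, 69% in mESC after OHT and 73.7% in EB. The log2 fold change was −0.62 ± 0.08 before OHT (edgeR adjusted p = 1.1e-05), or 0.65-fold, and 0.83 ± 0.08 in EB (edgeR adjusted p = 4.4e-07), or 1.78-fold. In mESC after OHT it was 0.23 ± 0.08 (edgeR adjusted p = 0.029). That middle call was lost without KO mESC replicate 4 (0.13, adjusted p = 0.35) or WT mESC replicate 1 (0.22, adjusted p = 0.10). It was also lost when the fit held those groups alone (0.24, adjusted p = 0.060).

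The change in the genotype effect on Stard4 was tested directly. It was 0.85 ± 0.11 for mESC after OHT minus before (edgeR adjusted p = 1.9e-04), where 7.86% of all tested genes passed and 4.07% were higher. It was 0.60 ± 0.11 for EB minus mESC after OHT (edgeR adjusted p = 8.8e-04), where 28.6% of all genes passed and 14.8% were higher. EB minus before OHT gave 1.45 ± 0.12 (edgeR adjusted p = 5.8e-08), or 2.74-fold, where 31.2% of all genes passed and 15.5% were higher. These 3 contrasts share libraries. Each stayed called under every alternative run, at 0.75 to 0.94, 0.51 to 0.70 and 1.4 to 1.5. Within genotypes, Stard4 rose by 0.61 ± 0.08 in KO mESC against F/F mESC (edgeR adjusted p = 1.6e-05), and it fell by 0.93 ± 0.08 in WT EB against WT mESC after OHT (edgeR adjusted p = 2.3e-08). KO EB against KO mESC gave −0.33 ± 0.08 (edgeR adjusted p = 0.0021), a call lost without KO mESC replicate 4 (−0.23, adjusted p = 0.055).

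**Figure D3:**
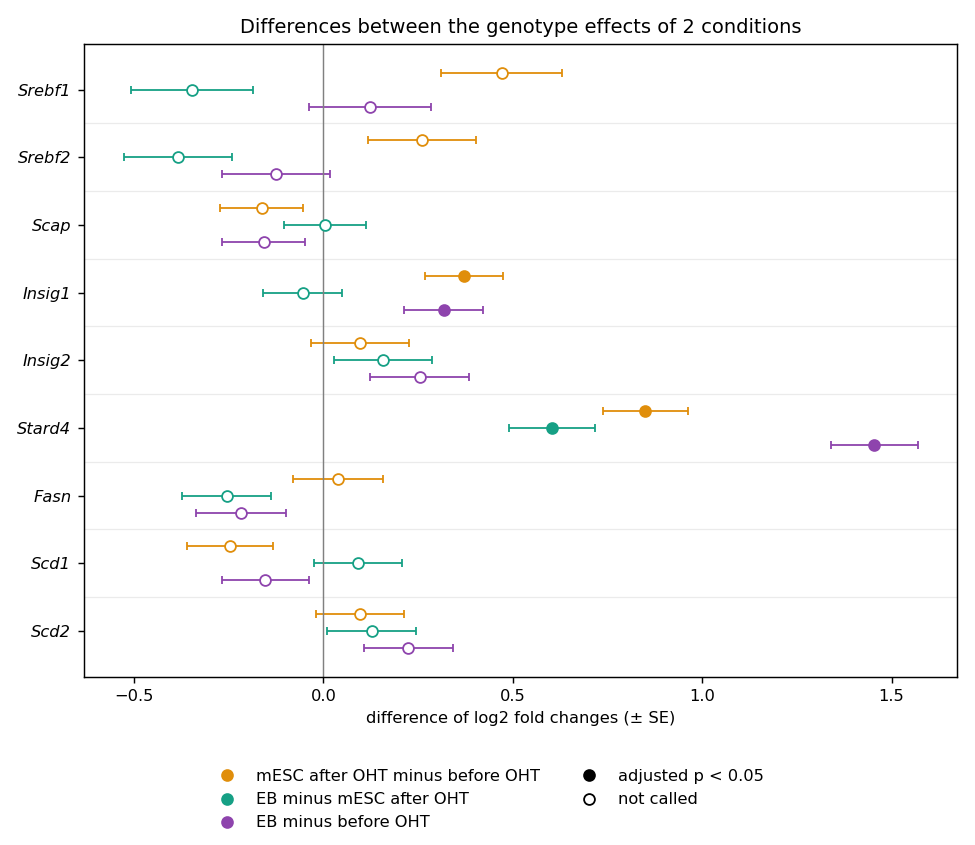
Points are differences between genotype effects on the log2 scale, with bars of 1 SE, for mESC after OHT minus before, EB minus mESC after OHT, and EB minus before OHT. Filled points passed an adjusted p of 0.05. Stard4 stands at 0.85, 0.60 and 1.45, Insig1 passed in 2 of the 3 contrasts, and no other of the 9 genes passed.

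Fasn encodes fatty acid synthase, which builds palmitate. It was at 789 and 894 CPM in F/F mESC before OHT, against 942 and 964 CPM in WT mESC. OHT-treated KO mESC had 1209 and 1221 CPM, against 1221 and 1459 CPM in WT mESC. In EB it was at 989 and 982 CPM in KO, against 1232 and 1363 CPM in WT. The genotypes separated most clearly in EB, where the log2 fold change was −0.40 ± 0.08 (edgeR adjusted p = 0.0011), or 0.759-fold. It was −0.18 ± 0.08 before OHT (edgeR adjusted p = 0.11) and −0.14 ± 0.08 in mESC after OHT (edgeR adjusted p = 0.20), which did not pass. Single libraries mattered here too, as Fasn passed before OHT without F/F replicate 4 (−0.27, adjusted p = 0.046) and in mESC after OHT without WT mESC replicate 1 (−0.25, adjusted p = 0.033). The difference between the EB and mESC genotype effects, −0.26 ± 0.12, did not pass either (edgeR adjusted p = 0.12), but did without WT mESC replicate 2 (−0.39, adjusted p = 0.0088). Fasn was higher in mESC after OHT than before in both genotypes, by 0.53 ± 0.08 in floxed lines (edgeR adjusted p = 1.0e-04) and by 0.49 ± 0.08 in WT lines (edgeR adjusted p = 1.6e-04). It fell by 0.30 ± 0.08 in KO EB against KO mESC (edgeR adjusted p = 0.0051), while WT EB against WT mESC gave −0.05 ± 0.08 (edgeR adjusted p = 0.65), or −0.21 without WT mESC replicate 1 (adjusted p = 0.043).

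Scd1 encodes a stearoyl-CoA desaturase, which turns saturated into monounsaturated fatty acids. Before OHT it was at 147 and 141 CPM in F/F mESC, against 256 and 235 CPM in WT mESC. After OHT it was at 72.0 and 79.0 CPM in KO mESC, against 145 and 159.8 CPM in WT mESC. In EB it was at 43.8 and 45.3 CPM in KO, against 77.6 and 90.9 CPM in WT. Each floxed group lay below its WT group without overlap, and both genotypes fell at each step. Per condition, 67.2% to 73.7% of all tested genes had no overlap between genotypes, in either direction. The genotype log2 fold change was −0.77 ± 0.08 before OHT (edgeR adjusted p = 9.5e-07), −1.01 ± 0.08 in mESC after OHT (edgeR adjusted p = 5.3e-08) and −0.92 ± 0.08 in EB (edgeR adjusted p = 1.5e-07). None of the differences between these effects passed, the largest being −0.25 ± 0.11 for mESC after OHT minus before (edgeR adjusted p = 0.19).

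Scd2, its paralog and another stearoyl-CoA desaturase, was at 788 and 735 CPM in F/F mESC before OHT, against 1318 and 1184 CPM in WT mESC. Following OHT it was at 552 and 598 CPM in KO mESC, against 833 and 935 CPM in WT mESC. In EB it was at 312 and 354 CPM in KO, against 454 and 483 CPM in WT. The genotypes did not overlap within any condition, where 67.2% to 73.7% of all tested genes per condition did not. The log2 fold change was −0.72 ± 0.08 before OHT (edgeR adjusted p = 3.2e-06), −0.62 ± 0.08 in mESC after OHT (edgeR adjusted p = 1.8e-05) and −0.49 ± 0.08 in EB (edgeR adjusted p = 1.5e-04). The ratio of Scd2 to Scd1 CPM was 7.12 to 7.81 in KO libraries and 5.03 to 5.85 in F/F and WT libraries. Of the 50-base words in their exons, 4.56% for Scd1 and 3.97% for Scd2 also occur in other genes, mostly of the Scd family, so a small part of their reads could be assigned to either or neither.

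Between conditions, Scd1 and Scd2 fell and Scap rose at both steps in both genotypes. In mESC after OHT against before, 6 of 9 genes passed in the floxed lines (4 higher, 2 lower), where 43.7% of all genes passed (22.1% higher, 21.5% lower), and 8 of 9 in WT lines (2 higher, 6 lower), where 49.1% passed (24.9% higher, 24.2% lower). In EB against mESC after OHT, 7 of 9 passed in KO (1 higher, 6 lower), where 59% of all genes passed (31.4% higher, 27.6% lower), and 6 of 9 in WT (1 higher, 5 lower), where 62.3% passed (32.5% higher, 29.8% lower). Scd1 fell by 0.93 ± 0.08 in KO mESC against F/F mESC (edgeR adjusted p = 2.8e-07) and by 0.69 ± 0.08 in WT mESC after OHT against before (edgeR adjusted p = 4.4e-06). In EB against mESC, Scd2 fell by 0.79 ± 0.08 in KO (edgeR adjusted p = 3.0e-07) and by 0.92 ± 0.08 in WT (edgeR adjusted p = 3.7e-08). Without single libraries the WT count of 8 in mESC after OHT against before ranged from 5 to 8, since Srebf1, Srebf2 and Stard4 were each lost in some of these fits. Srebf2 there gave −0.34 ± 0.10 (edgeR adjusted p = 0.010), but −0.25 without WT replicate 1 before OHT (adjusted p = 0.11), −0.16 without WT mESC replicate 1 (adjusted p = 0.21) and −0.52 without WT mESC replicate 2. Stard4 gave −0.24 ± 0.08 (edgeR adjusted p = 0.019), but −0.26 (adjusted p = 0.051) and −0.20 (adjusted p = 0.13) without WT replicate 1 or 2 before OHT, and −0.19 (adjusted p = 0.13) without WT mESC replicate 1. Early epiblast markers summed to 1442 to 1457 CPM in KO EB and 2773 to 2788 CPM in WT EB, with 7 of 7 lower in KO EB, where 19.7% of all genes were. They summed to 232 to 234 CPM in KO mESC and 331 to 334 CPM in WT mESC after OHT (1 of 7 higher, 4 lower). Before OHT they were at 221 to 224 CPM in F/F mESC and 281 to 292 CPM in WT mESC (1 of 7 higher, 3 lower). Over all genes tested, 19.8% were higher and 18.6% lower after OHT in mESC, and 19.9% and 17.5% before OHT. Primitive and visceral endoderm markers, of cells that handle lipoproteins, summed to 37.9 to 39.8 CPM in KO EB and 44.6 to 56.4 CPM in WT EB. Of these 12 markers, 1 was higher and 5 lower in KO EB, where 20.7% of all genes were higher and 19.7% lower. Ttr was at 0 in 7 of the 12 libraries. Before OHT the endoderm markers summed to 18.8 to 21.4 CPM in F/F mESC and 24.7 to 31.9 CPM in WT mESC (5 of 12 lower, 0 higher). After OHT they summed to 16.9 to 18.5 CPM in KO mESC and 16.5 to 41.0 CPM in WT mESC (1 of 12 higher, 2 lower). The part of these marker levels in the differences between genotypes and between conditions was not tested.

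**Figure D4:**
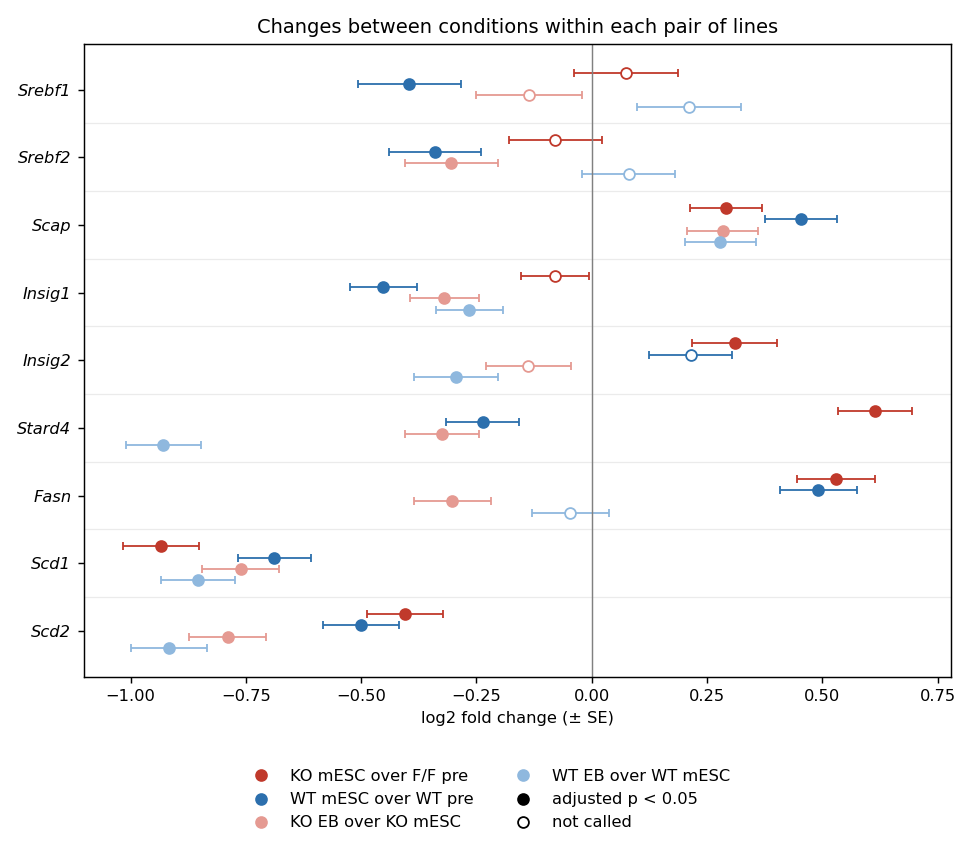
Points are log2 fold changes between conditions within a genotype for the 9 genes, with bars of 1 SE: KO mESC against F/F mESC, WT mESC after OHT against before, KO EB against KO mESC, and WT EB against WT mESC. Filled points passed an adjusted p of 0.05. Scd1 and Scd2 lie left of 0 and Scap lies right of 0 in all 4 comparisons.

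Other genes of the pathway were counted on 4 lists. Over all genes tested, 19.9% were higher and 17.5% lower in F/F against WT mESC, 19.8% and 18.6% in KO against WT mESC, and 20.7% and 19.7% in KO against WT EB. The enzymes of cholesterol synthesis, many of them SREBP2 targets, had the lowest medians of the 4 lists. Of 20 tested, 0 were higher and 16 lower in F/F against WT mESC before OHT (median log2 fold change −0.56). In KO against WT mESC after OHT 0 were higher and 15 lower (median −0.39), and in KO against WT EB 1 was higher and 14 lower (median −0.62). In both mESC comparisons fewer of these enzymes passed when any single library of the groups compared was left out. Lss, the lanosterol synthase, was at 46.1 and 46.6 CPM in KO EB, against 98.0 and 111 CPM in WT EB, a log2 fold change of −1.17 ± 0.07 (edgeR adjusted p = 1.3e-09). Msmo1, a sterol demethylating oxidase, gave −1.11 ± 0.07 (edgeR adjusted p = 3.0e-09), and Acat2, an acetoacetyl-CoA thiolase, gave −0.81 ± 0.07 (edgeR adjusted p = 1.1e-07). All 3 were also lower in the floxed lines before OHT, at −0.68 for Lss, −0.60 for Msmo1 and −0.57 for Acat2 (edgeR adjusted p up to 6.2e-06). Hmgcs1, which makes HMG-CoA, is listed at 0 in all 12 libraries and was not tested.

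Of the other fatty acid synthesis genes 20 were tested, where 37.4%, 38.4% and 40.4% of all genes passed before OHT, in mESC after OHT and in EB. In F/F against WT mESC 4 were higher and 9 lower (median −0.18), in KO against WT mESC 3 and 7 (median −0.16), and in KO against WT EB 0 and 6 (median −0.09). Without WT replicate 1 the first of these became 1 higher and 7 lower, and without KO EB replicate 3 or WT EB replicate 2 the EB count became 0 and 3. Pnpla3, a lipid droplet protein, showed the largest change in EB among the genes named from this list, at −1.35 ± 0.15 (edgeR adjusted p = 2.4e-06). It was also lower before OHT (−0.39, edgeR adjusted p = 0.016) and in mESC after OHT (−0.36, edgeR adjusted p = 0.024). Both of these calls were lost when some single libraries were left out. Acaca, the acetyl-CoA carboxylase that supplies Fasn, gave −0.34 ± 0.07 in EB (edgeR adjusted p = 0.0012). Over the alternatives Acaca ranged from −0.34 to −0.30 before OHT and from −0.57 to −0.40 in mESC after OHT. Fads2, a polyunsaturated fatty acid desaturase, gave −0.33 ± 0.08 in EB (edgeR adjusted p = 0.0035), lost without WT EB replicate 2 (−0.21, adjusted p = 0.105), and −0.87 ± 0.08 before OHT (edgeR adjusted p = 3.2e-07).

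The SREBP processing list holds the proteases and the machinery that carries or degrades SCAP and INSIG. Of 18 tested, 4 were higher and 3 lower in F/F against WT mESC (median 0.06), close to the 37.4% of all genes that passed. In KO against WT mESC 4 were higher and 6 lower (median −0.05), which became 2 and 1 without KO mESC replicate 4 and 3 and 2 without WT mESC replicate 1. In that mESC comparison 38.4% of all genes passed (19.8% higher, 18.6% lower). In KO against WT EB 5 were higher and 2 lower (median 0.12), close to the 40.4% of all genes that passed. Vcp, the ATPase that extracts ubiquitinated proteins from the endoplasmic reticulum, was at 181 and 173 CPM in KO EB, against 101 and 98.3 CPM in WT EB (0.82 ± 0.07, edgeR adjusted p = 3.4e-08). It was higher before OHT too, at 119 and 134 CPM in F/F mESC, against 93.6 and 91.6 CPM in WT mESC (0.45 ± 0.07, edgeR adjusted p = 4.8e-05). Erlin1, which takes part in the degradation of sterol-regulated membrane proteins, gave 0.47 ± 0.08 in EB (edgeR adjusted p = 1.5e-04). Over the alternatives Erlin1 ranged from 0.28 to 0.33 before OHT and from 0.021 to 0.22 in mESC after OHT. Mbtps2, the site-2 protease, gave 0.31 ± 0.06 in EB (edgeR adjusted p = 7.4e-04) and −0.27 ± 0.06 in mESC after OHT (edgeR adjusted p = 0.0027).

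Sterol uptake and efflux genes had calls in both directions. Of 21 tested, 3 were higher and 10 lower in F/F against WT mESC (median −0.27), where 19.9% of all genes were higher and 17.5% lower, and the counts became 2 and 5 without F/F replicate 4 and 1 and 4 without WT replicate 1. In KO against WT mESC 3 were higher and 7 lower (median −0.14), or 2 and 4 without KO mESC replicate 4, and in KO against WT EB 3 were higher and 8 lower (median −0.18). Over all genes tested, 19.8% were higher and 18.6% lower in that mESC comparison, and 20.7% and 19.7% in that EB comparison. Abca1, which exports cholesterol, was higher in KO EB, at 28.2 and 29.5 CPM in KO, against 14.7 and 13.0 CPM in WT (1.06 ± 0.09, edgeR adjusted p = 5.4e-08). Its genotype effect in EB minus that in mESC after OHT was 1.02 ± 0.12 (edgeR adjusted p = 9.5e-06). Lipa, the lysosomal acid lipase that frees cholesterol from lipoproteins, was at 27.0 and 28.3 CPM in KO EB, against 15.0 and 15.3 CPM in WT EB (0.86 ± 0.09, edgeR adjusted p = 1.4e-06). Its EB minus before-OHT difference was 1.13 ± 0.13 (edgeR adjusted p = 5.3e-06). Before OHT Lipa was lower in the floxed lines, at −0.27 (edgeR adjusted p = 0.030), or −0.16 without F/F replicate 4. In KO against WT mESC after OHT it was already higher, at 0.50 to 0.53 over the alternatives. The EB minus mESC difference of Lipa, 0.32 to 0.39 over the alternatives, did not pass with the settings of the report. It did with relative log expression scaling (0.37, edgeR adjusted p = 0.043).

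**Figure D5:**
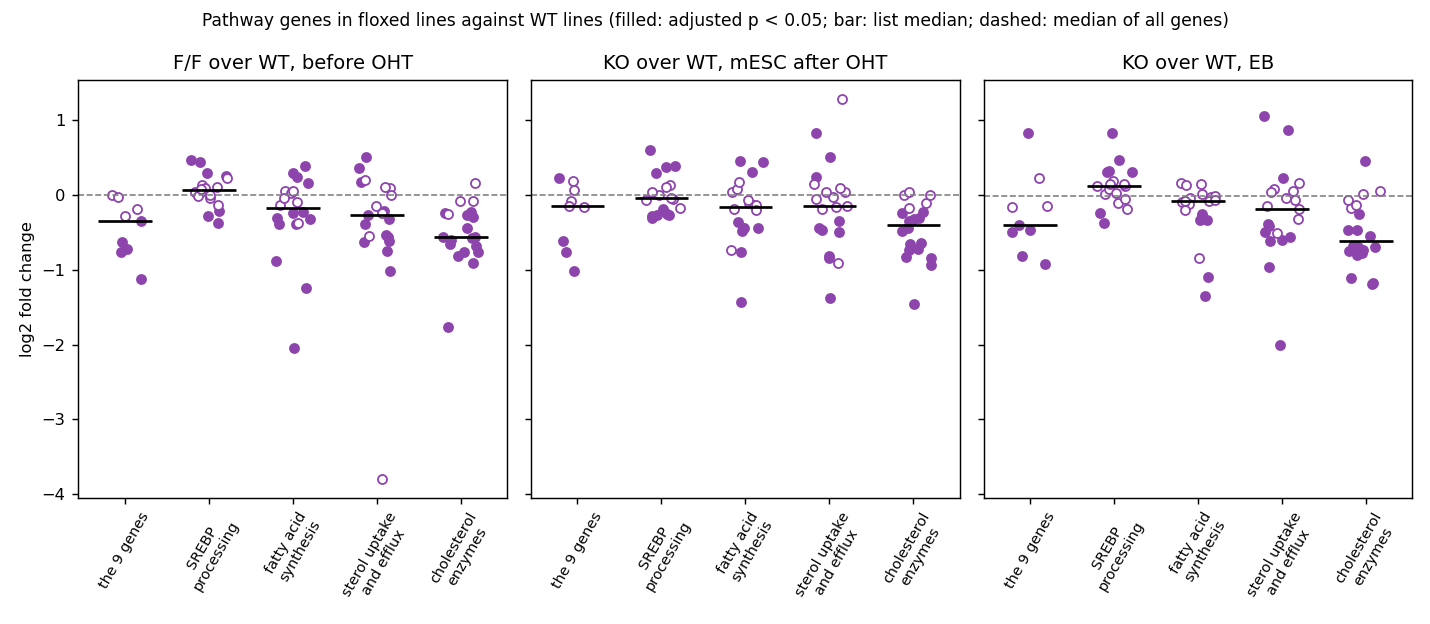
Points are log2 fold changes of the 9 genes and of the 4 pathway lists in F/F against WT mESC, KO against WT mESC and KO against WT EB. Bars are list medians and the dashed line is the median of all genes tested. Cholesterol enzymes have medians of −0.56, −0.39 and −0.62, and the SREBP processing list stays near 0.

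By CPM per kb of exon, which allows levels to be compared between genes, Scd2 ranged over the 12 libraries from 57.1 to 241 and Fasn from 72.1 to 133. Insig1 ranged from 26.1 to 81.1, Srebf2 from 25.9 to 45.7 and Scd1 from 8.95 to 52.3. Srebf1 ranged from 10.8 to 17.8, Scap from 8.32 to 15.2, Stard4 from 3.87 to 9.26 and Insig2 from 5.19 to 7.43. The order depended on the group: Scd1 was at 28.9 to 30.1 CPM per kb in F/F mESC, above Srebf1 at 13.9 to 14.0, and at 8.95 to 9.27 in KO EB, below Srebf1 at 13.0 to 13.7 and Scap at 12.6 to 13.2. Over the 12 libraries, which share lines and conditions, log2 CPM of Scd1 and Scd2 ran together most closely (Pearson r = 0.98), followed by Insig1 with Scd1 (r = 0.85) and Srebf2 with Insig1 (r = 0.84). Scap and Scd2 ran in opposite directions (r = −0.70).

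The most alike genes outside the 9 were found by Pearson correlation of log2 CPM over the same 12 libraries, as a description. Stard4 was closest to Rfxap (r = 0.99) and Fam171a1 (r = 0.96), Insig1 to Fkbp6 and Olig1 (r = 0.98 each), and Scd1 to Pif1 (r = 0.99) and Slc44a3 (r = 0.98). For Scd2 the closest were Tcf20 and Adamtsl4 (r = 0.98 each), and for Fasn Ccdc71 (r = 0.96) and Tcof1 (r = 0.95). Srebf2 was closest to Fance (r = 0.95) and E4f1 (r = 0.94), and Srebf1 to Zfp444 (r = 0.91) and Scrib (r = 0.87). Scap was closest to Pdcd11 and Cd320 (r = 0.98 each), and Insig2 to Skp2 (r = 0.92) and Ccbl2 (r = 0.91). None of the 20 closest genes of any member was on the 4 pathway lists.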

How the data were processed

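The deposited table holds raw, unnormalized counts of reads for each symbol in the 12 libraries. The submitters' processing notes list BWA, HTSeq, DESeq2 and mm9, with no version and no role. The sources used here do not say whether the authors counted by strand. Differences were tested by edgeR (version 4.0.16, R 4.3.3): 1 model of the 6 groups, TMM normalization, the filterByExpr filter, the quasi-likelihood F test, and Benjamini-Hochberg adjustment over the 17115 genes tested in each comparison, at 0.05. Called or passed means an adjusted p under 0.05. SE is the log2 fold change divided by the square root of F. The common biological coefficient of variation was 0.0717 with 6 residual degrees of freedom, from 4 lines each measured in 3 conditions. A further 11.03 prior degrees of freedom were borrowed from other genes. The procedure was tested on simulated data. Alternatives were DESeq2 1.42.0, relative log expression scaling, no filter, only the groups compared, a replicate block, and leaving out each library.

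Replicate numbers stand for cell lines, so they pair conditions within a genotype. Same-line deviations correlated at −0.07 to 0.09. The members and lists were chosen with earlier results of these data known. The text names all 9 members, Rif1, the 2 genes most correlated with each member, and up to 3 genes per pathway list with the smallest adjusted p in KO against WT EB. A gene that this rule names is not reported here. Exon lengths and overlaps come from GENCODE M21, by symbol, and promoters from RefSeq on GRCm38.p6.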

Additional observations from a re-analysis of the deposited data

Results flagged for a closer look

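The genotype effect on 2 of the 9 genes differed between conditions by a test of the difference itself (edgeR's quasi-likelihood test). In mESC after OHT minus before OHT 2 of 9 passed, where 7.86% of all tested genes did. In EB minus mESC after OHT 1 of 9 passed, where 28.6% of all genes did, and in EB minus before OHT 2 of 9, where 31.2% did. In both EB contrasts the share of the 9 genes was thus no higher than that of all genes. For Stard4 the log2 difference was 0.85 for mESC after OHT minus before OHT, 0.60 for EB minus mESC after OHT, and 1.45 for EB minus before OHT. For Insig1 it was 0.37 for mESC after OHT minus before OHT and 0.32 for EB minus before OHT (edgeR adjusted p = 0.027). The second Insig1 call was lost without F/F replicate 3 (0.29, adjusted p = 0.075), WT replicate 1 before OHT (0.25, 0.13), KO EB replicate 4 (0.27, 0.12) or WT EB replicate 1 (0.24, 0.13). Groups of 2 are too small to test for a library far from the others.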

How the results depend on the processing

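Insig1, Scd1 and Scd2 in all 3 genotype comparisons, Stard4 before OHT and in EB, and Srebf2 and Fasn in EB kept their direction and call under every alternative run. In EB minus mESC after OHT, 1 member was called with the settings of the report, against 2 with DESeq2, 3 with no filter and 2 with the replicate block. The replicate block fits only contrasts that span conditions, since each line has 1 genotype. It gained Srebf1 in mESC after OHT minus before (0.49, adjusted p = 0.046) and Srebf2 in EB minus mESC (−0.38, adjusted p = 0.041) and changed no other call of a named gene, while sterol uptake and efflux calls in mESC after OHT minus before were 1 with the block and 2 without. Over all genes, mESC after OHT minus before gave 1346 calls, against 2218 with no filter and 705 with only the groups compared. Scap in EB minus mESC was −0.0019 with only the groups compared. Leaving out 1 library, calls over all genes ranged from 510 to 2540 in mESC after OHT minus before and from 4125 to 6544 in KO against WT mESC (6572 with all libraries). Member calls ranged from 1 to 4 in mESC after OHT minus before (2 with all), 1 to 4 in EB minus mESC, 1 to 2 in EB minus before OHT (2 with all) and 5 to 8 in WT mESC after OHT against before. Values uncalled with all libraries that crossed 0 without 1 library ranged, in mESC after OHT minus before, from −0.076 to 0.17 for Fasn and −0.15 to 0.015 for Abca1. In KO against WT mESC they ranged from −0.23 to 0.11 for Srebf2, −0.0078 to 0.44 for Srebf1 (called at the upper end) and −0.043 to 0.13 for Abca1. Others were Scap in F/F against WT mESC (−0.036 to 0.060), Srebf2 in KO against F/F mESC (−0.21 to 0.044), and, in WT EB against WT mESC, Srebf1 (−0.040 to 0.46), Srebf2 (−0.12 to 0.26) and Fasn (−0.21 to 0.082), of which 0.46 for Srebf1 (adjusted p = 4.1e-04), 0.26 for Srebf2 (adjusted p = 0.022) and −0.21 for Fasn (adjusted p = 0.043) were called. In EB minus mESC they were Scap (−0.089 to 0.091), Scd1 (−0.022 to 0.20) and Insig1 (−0.14 to 0.023). The cause of these shifts was not tested. Groups of 2 limit all tests.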
